A study of Mus musculus with 6 samples.

Results

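Rab GTPases, the proteins that load and activate them, and the proteins that fuse vesicles were followed in the RNA of mouse sperm and testes. The families were picked with earlier results of these data known, and their genes were taken by a rule on names. It kept every gene with a RefSeq mRNA (NM_) whose symbol begins with Rab, Stx, Snap, Syt or Vps and a number. Symbols that begin with Stxbp or Vamp were kept as well. This gave 127 of the 14455 genes with an NM_ transcript in the tables. The samples were 4 pools of mature sperm and 2 samples of testes, all from C57BL/6 mice labelled 3 to 5 months old, where the study's methods name the substrain C57BL/6J and ages in weeks that begin below that range. Sperm were taken from the cauda epididymis and vas deferens, each pool held sperm of several mice, and testes of the same mice were used. The groups were compared with sperm replicates 2, 3 and 4, because the study set replicate 1 aside after its check of correlations. Replicate 1 is given beside them for most of the named genes.

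Vesicle traffic runs in steps that these gene families divide among them. A Rab GTPase marks a membrane and, once loaded with GTP by an activator, recruits effectors that move and tether the vesicle. Syntaxins, VAMP and SNAP proteins are SNAREs, which zip together and merge the membranes. Synaptotagmins sense calcium or membrane lipids, and many Vps proteins build complexes that tether and sort endosomal membranes. In the male germ line this machinery builds the acrosome, a large secretory vesicle over the sperm nucleus that grows from the Golgi apparatus in spermatids and is released at fertilization. Mature sperm make little or no new RNA, so their RNA is mostly what was left from earlier stages.

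Of the 4 genes called in the comparison below, 3 had a promoter in the RefSeq table for GRCm38.p6, namely Syt6, Rab3ip and Stx18. Rab5a, the gene with the highest FPKM (fragments per kilobase, scaled by depth) of these families in testes, is shown with them. Each sequence is the 150 bases before an annotated transcript start, which need not be the start used in these cells. The windows lie at chr3:103575095-103575244 on the plus strand for Syt6, at chr10:116950454-116950603 on the minus strand for Rab3ip, at chr5:38039080-38039229 on the plus strand for Stx18 and at chr17:53479084-53479233 on the plus strand for Rab5a. Capitals mark a GC box (GGGCGG on either strand) or a cAMP response element (TGACGTCA on either strand, which also holds the shorter half-site TGACG on each strand).
Syt6: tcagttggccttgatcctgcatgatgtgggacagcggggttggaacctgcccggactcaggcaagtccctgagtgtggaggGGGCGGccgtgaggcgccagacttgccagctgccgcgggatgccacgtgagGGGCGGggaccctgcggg
Rab3ip: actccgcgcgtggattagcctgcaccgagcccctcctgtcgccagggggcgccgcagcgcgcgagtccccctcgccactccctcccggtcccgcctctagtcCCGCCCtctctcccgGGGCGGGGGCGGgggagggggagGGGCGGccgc
Stx18: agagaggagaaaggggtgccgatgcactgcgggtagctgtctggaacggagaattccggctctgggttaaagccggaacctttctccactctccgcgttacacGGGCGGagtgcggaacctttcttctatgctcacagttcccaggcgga
Rab5a: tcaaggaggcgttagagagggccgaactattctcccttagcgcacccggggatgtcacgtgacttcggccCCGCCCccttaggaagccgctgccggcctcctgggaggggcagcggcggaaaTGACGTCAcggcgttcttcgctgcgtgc

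The Syt6 window held 2 GC boxes, the Rab3ip window 4, the Stx18 window 1, and the Rab5a window 1 GC box and 1 cAMP response element. GC boxes were found in 63 of the 99 vesicle genes with a promoter in the table (63.6%), against 38.3% of 17492 protein-coding promoters. The half-site was found in 30 of the 99 (30.3%, against 15.6%) and the full element in 3 (3.03%, against 1.79%). These are matches of letters and not evidence of binding.

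Coverage of mRNA was low. The estimated counts on NM_ transcripts summed to 42390 in sperm replicate 1, to 100027, 33511 and 54337 in the next 3 pools, and to 322625 and 314273 in testes. Levels are given below in CPM, the count scaled to an NM_ total of 1000000 per sample, and 3 counts, taken as the smallest level that can be seen, are worth 29.99 to 89.5 CPM in sperm and 9.30 to 9.55 CPM in testes. Intervals and floors cover counting error only. In sperm replicates 2 to 4, 8, 4 and 5 of 10 sperm and spermatid markers had counts. Of these, Tssk6, a spermatid kinase, was called higher in sperm, and Prm1 and Tnp1, which encode proteins that pack sperm chromatin, were called lower. Prm2, of the same list, was not called (edgeR adjusted p = 0.308), though its 1480, 1462 and 2392 CPM lay above the 1441 and 700 of testes. Summed, the list reached 2809, 4237 and 3497 CPM, against 3397 and 3053 in testes. Of the 7 meiotic markers with an NM_ row, none had a count in any sperm sample, although the testes level would put 26.0 counts in the 3 compared samples. Summed epididymal markers reached 80.0, 269 and 92.0 CPM in sperm replicates 2 to 4, with counts on 2, 2 and 1 of 7 genes, against 130 and 204 in testes. Summed leukocyte markers reached 29.99, 0 and 0, with counts on 2, 0 and 0 of 4 genes, against 52.7 and 25.5 in testes. Summed Leydig cell markers reached 170, 1194 and 110 CPM, against 580 and 541. Of these sperm sums, 160, 1194 and 110 CPM were Star, a cholesterol carrier of steroid-making cells. Cyp11a1, Hsd3b1, Hsd3b6 and Insl3 had no count in any sperm sample. Summed spermatogonial markers reached 99.97, 179 and 129 CPM, with counts on 2, 1 and 1 of 5 genes, against 775 and 1015 in testes. Gfra1, a receptor of spermatogonial stem cells, was called lower in sperm (edgeR adjusted p = 0.0107). Sohlh1, of the same list, lay the other way, with 8, 0 and 0 counts against 2 and 2 (log2 2.35, edgeR adjusted p = 0.154). Summed Sertoli cell markers reached 49.99, 0 and 36.8 CPM, with counts on 3, 0 and 1 of 7 genes, against 77.5 and 71.3. The part of other cells in the results below was not tested.

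Fewer of the vesicle genes were seen in sperm than in testes. In sperm replicates 1 to 4, 23, 56, 13 and 25 of the 127 genes had counts, and in the testes samples 106 and 105. The number followed depth in part. When every sample was thinned to the smallest NM_ total, 21.9, 40.8, 13 and 24.1 genes were expected with counts in sperm and 56.2 and 49.2 in testes, so all 4 sperm samples still lay below both testes samples. All NM_ genes behaved alike, with 1978, 4645, 1546 and 3088 expected in sperm against 5976 and 5417 in testes. Only 6 vesicle genes had counts in each of sperm replicates 2 to 4, 18 had them in 2 of the 3 samples, 40 in 1 and 63 in none. Of the 63, 49 would have had under 3 counts in sperm at their testes level, so their absence was not detectable at this depth.

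**Figure D1:**
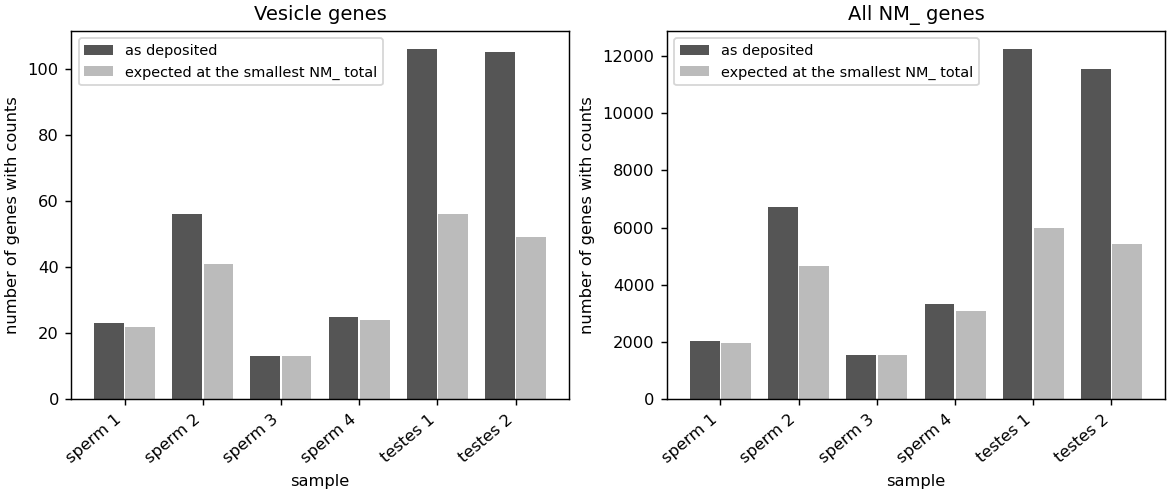
Number of vesicle genes (left) and of all NM_ genes (right) with counts in each sample, as deposited (dark bars) and after thinning of each sample to the smallest NM_ total (light bars, expected number). In the light bars the sperm samples held 13 to 40.8 vesicle genes and the testes samples 49.2 and 56.2.

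The share of mRNA given to these families overlapped between the groups. Vesicle genes held 0.434% of NM_ counts in sperm replicate 1, 0.447%, 0.597% and 0.346% in replicates 2 to 4 (0.463% ± 0.126, SD, n = 3), and 0.519% and 0.423% in testes (0.471% ± 0.0678, SD, n = 2). In sperm these counts lay on few genes. The top 5 genes of a sample held 44.0% to 70.8% of the vesicle gene counts in the 4 sperm samples, against 26.2% and 37.2% in testes. Syt6 was first in every sperm sample with 16.6% to 30.3% of them, and in testes Vps33a was first in one sample and Rab5a in the other.

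In the edgeR quasi-likelihood test across all 6781 genes with enough counts, 65 vesicle genes were tested, and 2 were called higher and 2 lower in sperm. Those called higher were Rab3ip and Syt6, and those called lower were Rab11fip1 and Stx18. A call needed an adjusted p below 0.05 and a fold change above 2. Over all genes tested, 3.45% were called higher and 3.66% lower, so the shares among vesicle genes were close to the background. The median log2 fold change was -1.69 over the vesicle genes tested and -1.17 over all genes tested. With the 18 tested vesicle genes that had no sperm count set at their bound, the median was -0.41, against -0.49 over all genes treated so. Of the 65 genes, 21 had a positive and 44 a negative log2 fold change. In bulk samples, fewer cells of a type and less RNA per cell cannot be told apart.

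The balance of calls changed with the scaling or tool and with single samples. Of all genes called, 48.5% were higher in sperm with scaling to the NM_ total, 35.2% with the total of all transcript classes, 17.3% with DESeq2, which changes both the size factors and the test, and 6.34% with TMM factors, and the median log2 fold change of all genes was then -1.17, -1.41, -2.21 and -1.81. Vesicle genes called lower numbered 4 with the total of all classes, 10 with DESeq2 and 22 with TMM factors. Without sperm replicate 3, 6 vesicle genes were called higher and 6 lower. None was called lower without sperm replicate 2 or either testes sample, and 1 without sperm replicate 4. Without testes replicate 1 none was called higher, and without testes replicate 2 only Syt6 was. Because of these shifts, fold changes of the called genes are also given relative to the median of all genes.

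**Figure D2:**
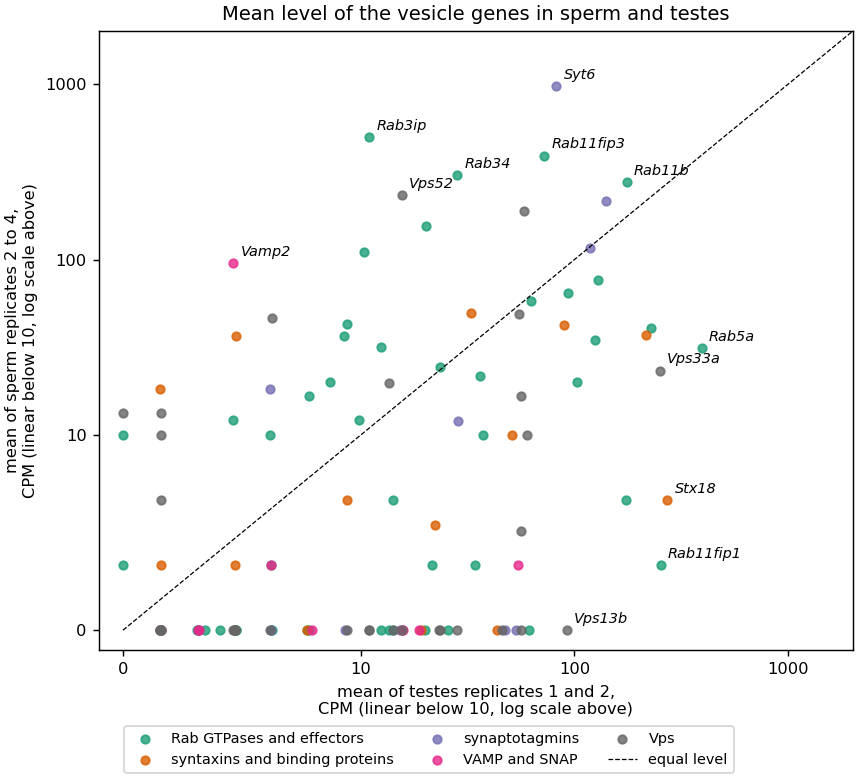
Mean level of each of the 127 vesicle genes in testes (horizontal) and in sperm replicates 2 to 4 (vertical), in CPM on axes that are linear below 10 and logarithmic above, coloured by family. Syt6, Rab3ip, Rab34 and Vps52 lie above the line of equal level, and Rab5a, Vps33a, Stx18 and Rab11fip1 below it.

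Without any test, the ranges gave a like picture. In 4 genes (Syt6, Rab3ip, Rab34 and Vps52) every one of sperm replicates 2 to 4 lay above both testes samples, which held for 3.67% of all genes. In 52 genes every sperm value lay below both testes values, which held for 38.5% of all genes, and 38 of the 52 had no count in those sperm samples. In the other 71 genes the ranges overlapped. The 4 genes are 3.15% of the 127 and the 52 are 40.9%, both near the background.

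Syt6 encodes a synaptotagmin, one of the membrane proteins that act in calcium-triggered release, and has been placed at the acrosome. It had 36 counts in sperm replicate 1, 74, 38 and 57 in replicates 2 to 4, and 8 and 44 in testes. That is 849 CPM in replicate 1, 740, 1134 and 1049 in replicates 2 to 4, and 24.8 and 140 in testes. All 4 sperm samples were above both testes samples. The means were 974 ± 207 (SD, n = 3) and 82.4 ± 81.5 (SD, n = 2), and the fitted log2 fold change was 3.55 with an SE of 0.85 (edgeR adjusted p = 0.00115), or 4.72 above the median of all genes. The call held in 9 of the 13 alternatives and was lost with TMM factors (adjusted p = 0.111), with DESeq2 (adjusted p = 0.0667), with every counted gene tested (adjusted p = 0.317) and without testes replicate 1 (adjusted p = 0.172), while the fold change was positive under each of them. Per length, Syt6 was the highest of the 127 genes in sperm with 52.3 FPKM ± 12.4 (SD, n = 3), and it was at rank 10 in testes with 5.25 FPKM ± 5.41 (SD, n = 2). Every sperm count was assigned to the shorter of 2 annotated transcripts, of 1857 bases. The longer, of 4264 bases, had 1 and 2 counts in the testes samples. The gene lies on chromosome 3 at 103575245 to 103645567 (GRCm38.p6), where the pseudogene Atg4a-ps overlaps it.

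The other synaptotagmins were not called. Of 12 with a row, 7 were tested. Syt7, a calcium sensor of lysosome and granule release, had 13.45, 14 and 5 counts in sperm replicates 2 to 4, against 67.94 and 21.88 in testes, and its ranges overlapped (log2 0.55, SE 1.16, adjusted p = 0.756). Syt12, a member that does not bind calcium, had 13.92, 0 and 11.54 counts against 58.67 and 17.46, which also overlapped (log2 0.07, SE 1.27, adjusted p = 0.971). With TMM factors the log2 fold changes of Syt7 and Syt12 were -0.47 and -0.49. Syt5 and Syt10 had no count in any sperm sample, with 13 and 17, and 12 and 22, in testes. With sperm set at 3 counts over the 3 samples, they were 2.95-fold and 3.34-fold lower, which leaves out the counting error of testes. With that error, the exact counting interval of the pooled ratio of sperm to testes reached up to 0.444 for Syt5 and 0.388 for Syt10. These genes were chosen after their values were seen, and neither was called (adjusted p = 0.0714 for both).

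**Figure D3:**
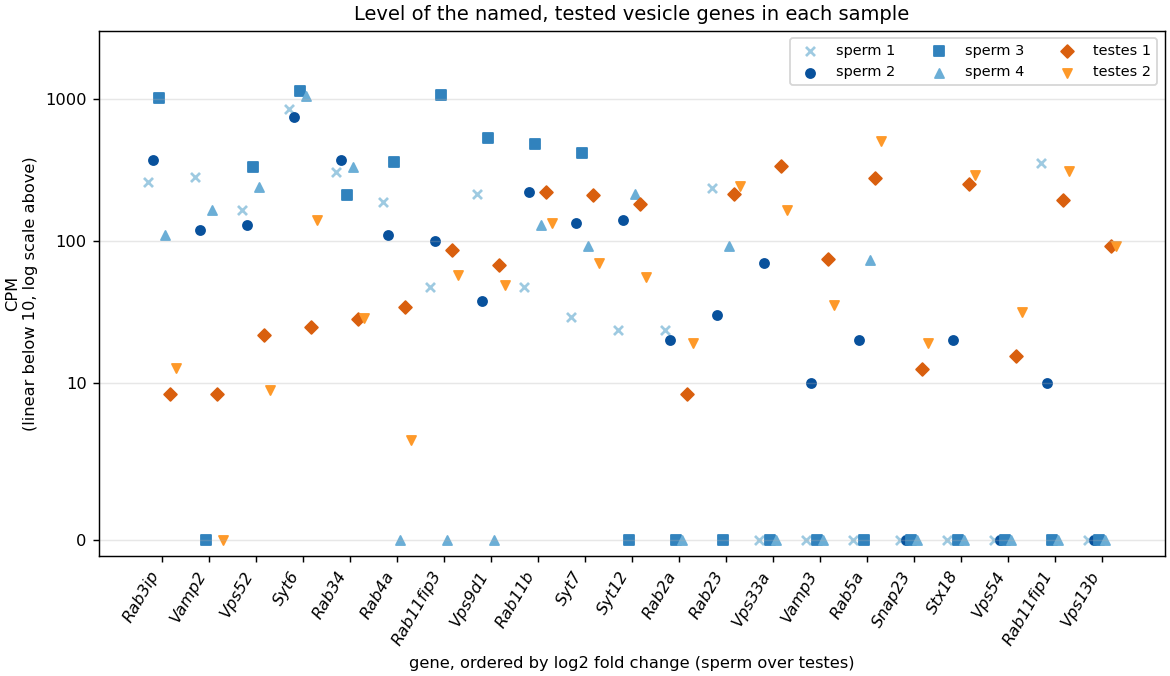
Level of named vesicle genes that were tested, in each of the 6 samples, in CPM on an axis that is linear below 10 and logarithmic above. Each point is 1 sample, with crosses for sperm replicate 1. Syt6 and Rab3ip have all sperm points above both testes points, and Stx18 has 20.0 CPM in sperm replicate 2 and 0 in the other sperm samples.

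Among the regulators and effectors of Rab proteins, 1 of 7 tested genes was called higher and 1 lower. Over all genes tested these shares were 3.45% and 3.66%, and 7 genes are too few to compare with them. Rab3ip, also known as Rabin8, is the activator that loads Rab8 with GTP. It had 11 counts in sperm replicate 1, 37, 34 and 6 in replicates 2 to 4, and 3 and 4 in testes, or 260, 370, 1015 and 110 CPM in sperm and 9.30 and 12.7 in testes. The sperm samples spread widely but all lay above testes, with means of 498 ± 466 (SD, n = 3) and 11.0 ± 2.42 (SD, n = 2). The fitted log2 fold change was 5.38 with an SE of 1.25 (edgeR adjusted p = 7.45e-04), or 6.55 above the median of all genes. It was called in 10 of 13 alternatives, and lost when every gene with a count was tested (adjusted p = 0.317) and without testes replicate 1 (adjusted p = 0.0805) or 2 (adjusted p = 0.0737). The lncRNA gene Gm51782 overlaps Rab3ip on chromosome 10, and whether strand was used in counting is not given in the sources used here. Rab8a and Rab8b, the GTPases it acts on, had too few counts to test. Rab8a had 1 count in sperm replicate 1, 3, 0 and 0 in replicates 2 to 4, and 4 and 0 in testes. Rab8b had no count in any sperm sample and 1 and 2 in testes. In testes Rab8a averaged 6.20 and Rab8b 4.73 CPM.

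Rab11fip1, a Rab11 effector of recycling endosomes, was called lower but depended on the choice of sperm samples. It had 1, 0 and 0 counts in sperm replicates 2 to 4, against 63 and 98.07 in testes, with no overlap. Sperm replicate 1, left out of the comparison, had 15 counts or 354 CPM, above the testes mean of 254 ± 82.6 (SD, n = 2). The pooled ratio of sperm replicates 2 to 4 to testes was 0.0210, with a counting interval (95%, exact) of 5.30e-04 to 0.119. The fitted log2 fold change was -5.49 with an SE of 1.71 (edgeR adjusted p = 0.0246), or -4.32 relative to all genes, and with all 4 sperm samples it was -1.51 (adjusted p = 0.405). The call was also lost without sperm replicate 2 (adjusted p = 0.0758), sperm replicate 4 (adjusted p = 0.0780), testes replicate 1 (adjusted p = 0.546) or testes replicate 2 (adjusted p = 0.930), and when every gene with a count was tested (adjusted p = 0.314). With the replicate number as a block the adjusted p was 0.805. The lncRNA gene 4933416M07Rik overlaps Rab11fip1 on chromosome 8.

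Rab11fip3, another Rab11 effector, showed the reverse spread between pools. It had 2 counts in sperm replicate 1, 10, 36 and 0 in replicates 2 to 4, and 28 and 18 in testes. Replicate 3 alone stood high at 1074 CPM, and 29.76 of its 36 counts were on a transcript of 4880 bases that had no count in the other sperm samples. The ranges overlapped and the gene was not called (log2 2.37, SE 1.11, adjusted p = 0.0966). Without replicate 3 its log2 fold change was -0.34, and with the replicate block 0.08. In the same pool Star reached 1194 and Tssk6 2357 CPM, the highest of the 6 samples for both. The part of these in the value of Rab11fip3 was not tested. The lncRNA gene 1700022N22Rik overlaps Rab11fip3 on chromosome 17.

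The Rab GTPases themselves were not called in any of the 3 groups set up here. Of the secretory group, which holds the Rab3, Rab8 and Rab27 proteins, 10 had a row and 3 were tested. Of the ER and Golgi group, 13 had a row and 8 were tested, and of the endosome and lysosome group, 24 had a row and 11 were tested. The secretory group summed to 418, 0 and 140 CPM in sperm replicates 2 to 4, against 173 and 102 in testes, so sperm replicate 2 alone was above both testes samples. The ER and Golgi group summed to 582, 400 and 497 CPM, against 563 and 212, with overlap. The endosome and lysosome group summed to 803, 836 and 478 CPM, all below the 1288 and 1271 of testes.

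Rab34, a Golgi Rab with a role in cilium formation, had 13 counts in sperm replicate 1, 37, 7 and 18 in replicates 2 to 4, and 9 and 9 in testes. The means were 303 ± 84.1 (SD, n = 3) and 28.3 ± 0.524 (SD, n = 2) CPM without overlap. Its log2 fold change was 3.40 (SE 1.28, adjusted p = 0.0714), short of the threshold, and it was called in 3 of 13 alternatives, one of them without sperm replicate 3 (adjusted p = 6.28e-05). Per length Rab34 was at rank 2 in sperm with 17.7 FPKM ± 5.45 (SD, n = 3), next to Rab3ip with 17.5 FPKM ± 15.8 (SD, n = 3), and these neighbours did not differ beyond their spread. Rab4a, a Rab of rapid recycling, had 11, 12 and 0 counts in sperm and 11 and 2 in testes (log2 2.84, SE 1.55, adjusted p = 0.161). Rab11b, of the slower recycling route, had 22, 16 and 7 counts in sperm and 70.66 and 41.73 in testes (log2 0.61, SE 1.05, adjusted p = 0.701). Both had overlapping ranges. The log2 fold change of Rab11b was negative with TMM factors (-0.33), DESeq2 (-0.51) and the replicate block (-0.52).

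Rab5a, the Rab of early endosomes, stood at the other end. It had 0 counts in sperm replicate 1, 2, 0 and 4 in replicates 2 to 4, and 90 and 160 in testes. The means were 31.2 ± 38.1 (SD, n = 3) and 394 ± 163 (SD, n = 2) CPM without overlap, and the log2 fold change was -3.57 (SE 1.23, adjusted p = 0.0509), or -2.40 relative to all genes. The adjusted p lay just above the threshold, and Rab5a was called in 8 of 13 alternatives. The protein-coding gene Pp2d1 overlaps Rab5a on chromosome 17. Rab5c, its near relative, had no count in any sperm sample and 19 and 20 in testes (adjusted p = 0.0714). It was chosen after its values were seen. With sperm set at 3 counts it was 3.83-fold lower, and the exact counting interval of its pooled ratio reached up to 0.336. Rab23, a regulator of Hedgehog signalling, had 3, 0 and 5 counts in sperm replicates 2 to 4, against 69 and 77 in testes (log2 -2.41, SE 1.32, adjusted p = 0.162). In sperm replicate 1 it had 10 counts or 236 CPM, between the testes values of 214 and 245.

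**Figure D4:**
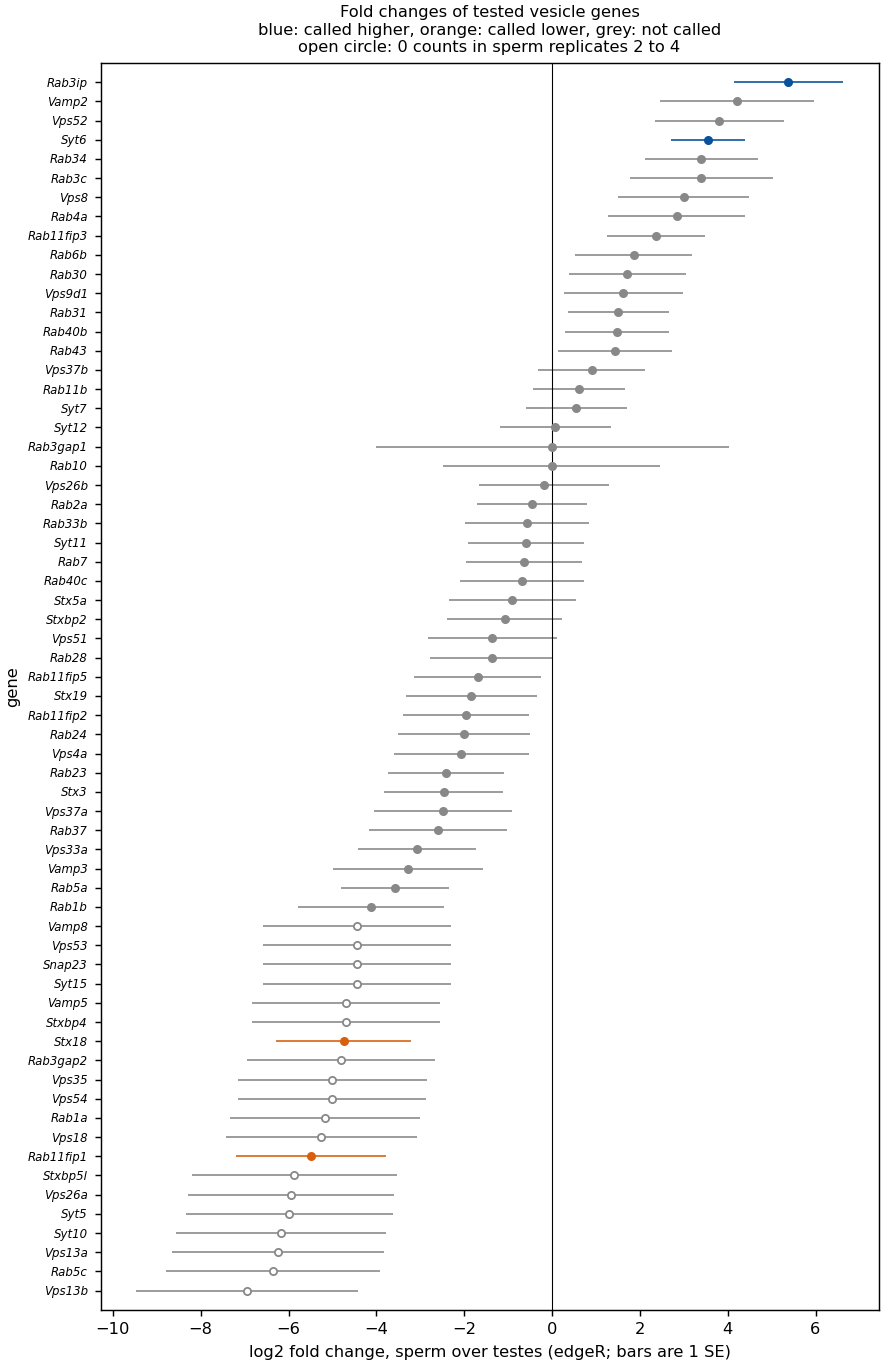
Log2 fold change of sperm replicates 2 to 4 over testes for tested vesicle genes, with bars of 1 SE from edgeR. Blue marks genes called higher (Rab3ip, Syt6), orange genes called lower (Rab11fip1, Stx18), and open circles genes with no count in sperm replicates 2 to 4, whose fitted value depends on the prior count.

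Of the syntaxins inside the cell, 2 of 7 genes were tested and Stx18 was called lower. Stx18 is a SNARE of the endoplasmic reticulum that takes in vesicles returning from the Golgi. It had 0 counts in sperm replicate 1, 2, 0 and 0 in replicates 2 to 4, and 81 and 92 in testes, or 272 ± 29.5 (SD, n = 2) CPM in testes. The groups did not overlap. The pooled ratio was 0.0392, with a counting interval (95%, exact) of 0.00471 to 0.144, and the fitted log2 fold change was -4.75 with an SE of 1.55 (edgeR adjusted p = 0.0355), or -3.58 relative to all genes. It was called in 7 of 13 alternatives. Among those without a call were the block on the replicate number (adjusted p = 0.496) and leaving out sperm replicate 2 (adjusted p = 0.0704), sperm replicate 4 (adjusted p = 0.104), testes replicate 1 (adjusted p = 0.740) or testes replicate 2 (adjusted p = 0.930), and the fit without the filter on low counts (adjusted p = 0.317). Its 2 transcripts, of 2440 and 2426 bases, were assigned in opposite ways: all 81 counts of testes replicate 1 were on the longer and all 92 of replicate 2 on the shorter. The sum per gene was used, which does not depend on that assignment. The protein-coding gene Nsg1 overlaps Stx18 on chromosome 5. Some other named genes, such as Rab11b, also have overlapping genes. In testes Stx18 was second to Rab5a per length, with 13.3 FPKM ± 2.16 (SD, n = 2) against 20.0 FPKM ± 9.15 (SD, n = 2), a gap within their spread.

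Of the surface syntaxins, 2 of 6 genes were tested, of the syntaxin-binding proteins 4 of 6, of the VAMP genes 4 of 6 and of the SNAP genes 1 of 3, and none was called. Vamp2, the vesicle SNARE of regulated release, had 12 counts in sperm replicate 1, 12, 0 and 9 in replicates 2 to 4, and 3 and 0 in testes. Replicate 3 had none, so the ranges overlapped (log2 4.20, SE 1.75, adjusted p = 0.0730). Without replicate 3 it was called (adjusted p = 0.00237). Vamp3, the related SNARE of recycling endosomes, lay the other way with 1, 0 and 0 counts in sperm and 24 and 11 in testes (log2 -3.28, SE 1.71, adjusted p = 0.138).

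The 31 Vps genes, of which 16 were tested, gave no call. Of the 8 genes of the HOPS and CORVET tethers, which bring endosomes and lysosomes together, 3 were tested. Vps33a, which guides SNARE assembly there, had 7, 0 and 0 counts in sperm replicates 2 to 4, against 109 and 52 in testes without overlap (log2 -3.07, SE 1.35, adjusted p = 0.0828). Vps8, of the same tethers and picked after its values were seen, had 11 counts in sperm replicate 1, 14, 0 and 0 in replicates 2 to 4, and 2 and 2 in testes (log2 3.00, adjusted p = 0.117). Of the 5 genes of the GARP and EARP tethers, which receive vesicles from endosomes, 4 were tested. Of these, 1 had a positive log2 fold change (Vps52) and 3 a negative one (Vps51, Vps53 and Vps54). Vps53 and Vps54 had no count in sperm replicates 2 to 4. Vps52 had 7 counts in sperm replicate 1, 13, 11.12 and 13 in replicates 2 to 4, and 7 and 3 in testes. Its means were 234 ± 101 (SD, n = 3) and 15.6 ± 8.59 (SD, n = 2) CPM without overlap (log2 3.81, SE 1.47, adjusted p = 0.0714), and it was called in 3 of 13 alternatives, one of them without sperm replicate 3 (adjusted p = 0.00706). Vps54 had no count in any sperm sample and 4.94 and 9.85 in testes (adjusted p = 0.0776). With sperm set at 3 counts it was 1.45-fold lower, but the exact counting interval of its pooled ratio reached up to 0.945. The 3 genes of the VPS13 family with a row, which carry lipids between membranes, had no count in any sperm sample, against 43.28 and 54.08 in testes. The retromer (4 genes with a row, 3 tested) summed to 56.6, 89.5 and 0 CPM in sperm replicates 2 to 4 and to 153 and 117 CPM in testes. The ESCRT genes (8 with a row, 3 tested) summed to 155, 0 and 0 CPM in sperm, all of it in replicate 2, and to 154 and 133 CPM in testes. Vps9d1, with the domain of Rab5 activators, had 3.75, 17.66 and 0 counts in sperm and 21.77 and 15.34 in testes (log2 1.63, SE 1.35, adjusted p = 0.382), and without sperm replicate 3 its log2 fold change was -1.26.

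Genes of these families known from acrosome formation or release were compared with the general trafficking genes. The list held 18 genes, of which 13 had a row and Rab27a, Rab27b, Snap25, Syt4 and Syt8 had none in the 6 tables. Of 8 tested, Syt6 was called higher and none lower, and of the 57 other vesicle genes tested, 1 was called higher and 2 lower. Over all genes tested, 3.45% were called higher and 3.66% lower. The median log2 fold change was -1.87 over the tested acrosome genes and -1.69 over the others, or -0.36 and -0.56 with genes lacking sperm counts at their bound. In each sperm sample at most 5 of the 13 genes had counts, against 10 and 12 in testes. Thinned to the smallest NM_ total, 2.79, 3.22, 2 and 3.00 were expected in sperm replicates 1 to 4, against 5.22 and 5.68 in testes. All NM_ genes showed such a gap as well. Before thinning, 10.7% to 46.6% of them had counts in the sperm samples, against 84.7% and 79.8% in testes.

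The acrosome genes held a larger share of the counts in sperm, and Syt6 made the difference. Their share of NM_ counts was 0.116% in sperm replicate 1, 0.0900%, 0.128% and 0.133% in replicates 2 to 4, and 0.0309% and 0.0379% in testes. Without Syt6 it was 0.0307% in replicate 1, 0.0160%, 0.0149% and 0.0276% in replicates 2 to 4, and 0.0284% and 0.0239% in testes, with overlap. The other vesicle genes held 0.347% ± 0.128 (SD, n = 3) of sperm counts and 0.437% ± 0.0727 (SD, n = 2) of testes counts. These shares are given without a test.

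**Figure D5:**
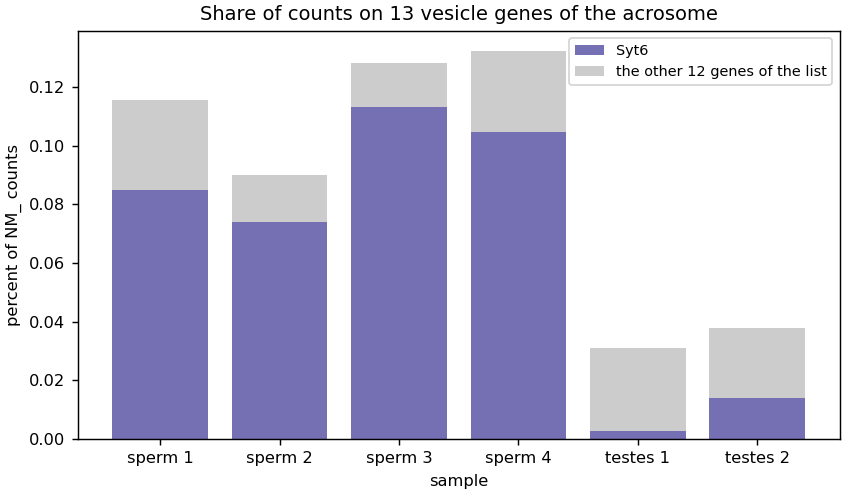
Percent of NM_ counts on the 13 vesicle genes of the acrosome list in each sample, split into Syt6 (purple) and the other 12 genes (grey). The total was 0.0900% to 0.133% in sperm and 0.0309% and 0.0379% in testes, while the grey parts overlapped between the groups.

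Other acrosome genes were seen at low counts. Vps13b, a Golgi lipid carrier needed for the acrosome, had no count in any sperm sample and 29.77 and 28.83 in testes. With sperm set at 3 counts it was 5.76-fold lower, and the exact counting interval of its pooled ratio reached up to 0.219. Its adjusted p was 0.0651, with a call in 6 of the 10 alternatives that tested it. Snap23, a SNARE of the plasma membrane, had no sperm count and 4 and 6 in testes (adjusted p = 0.103), a level at which under 3 counts would stand in the compared sperm samples. Rab2a, a Golgi Rab of the forming acrosome, had 1 count in sperm replicate 1, 2, 0 and 0 in replicates 2 to 4, and 3 and 6 in testes (log2 -0.46, SE 1.26, adjusted p = 0.818). Too few counts to test were found for Stx2, with 6 counts in sperm replicate 4 and 0 and 3 in testes, and for Vamp1, with 1 in sperm replicate 2 and 3 and 1 in testes. The same held for Rab3a (3 and 2 counts in testes), Rab6a (0 and 2.58) and Stx1a (0 and 1), which had no sperm count, and their absence was not detectable at this depth.

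Partners of these families outside the name rule were listed as well, with earlier results of these data known. Of 23 other genes of the fusion machinery, 18 had a row, 7 were tested and 3 were called higher in sperm, with none lower. Over all genes tested, 3.45% were called higher and 3.66% lower. The list was drawn up with results known, so its count of calls is no test against that share. Sytl3, a synaptotagmin-like effector of Rab27, had 243 counts in sperm replicate 1, 393, 67 and 244 in replicates 2 to 4, and 12 and 11 in testes. Its level was 3473 ± 1307 (SD, n = 3) against 36.1 CPM, with a log2 fold change of 6.56 (edgeR adjusted p = 2.78e-21) and a call in each of the 13 alternatives. Sytl1, of the same family, had 4 counts in sperm replicate 1, 16, 0 and 10 in replicates 2 to 4, and none in testes (adjusted p = 0.0144). It was called in 6 of the 10 alternatives that tested it, and not with the replicate block (adjusted p = 0.259), without testes replicate 1 (adjusted p = 0.825) or 2 (adjusted p = 0.930), or with every counted gene tested (adjusted p = 0.317). Cplx2, a complexin that binds the assembled SNAREs, had 62.37, 1.62 and 26.77 counts in sperm and 15.09 and 6.94 in testes (log2 3.51, adjusted p = 0.0410). It was called in 5 of 13 alternatives. The call was lost with TMM factors (adjusted p = 0.128), DESeq2 (adjusted p = 0.0922), the total of all transcript classes (adjusted p = 0.0537) and every counted gene tested (adjusted p = 0.317). It was also lost without sperm replicate 2 (adjusted p = 0.152) or 4 (adjusted p = 0.105) and without testes replicate 1 (adjusted p = 0.385) or 2 (adjusted p = 0.885). Nsf, the ATPase that takes SNAREs apart, had 1 count in all, in testes replicate 1.

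Of 16 other genes of acrosome formation, 12 were tested, 1 was called higher and none lower, where 3.45% and 3.66% of all genes tested were. Csnk2a2, a casein kinase subunit needed for sperm head shape, had 14 counts in sperm replicate 1, 29, 18 and 16 in replicates 2 to 4, and 2 and 16 in testes (log2 3.66, edgeR adjusted p = 0.0427). It was called in 4 of 13 alternatives. The call was lost with TMM factors (adjusted p = 0.189), DESeq2 (adjusted p = 0.0870) and the total of all transcript classes (adjusted p = 0.0550). The replicate block (adjusted p = 0.0878) and the test of every counted gene (adjusted p = 0.317) gave no call either. Leaving out sperm replicate 2 (adjusted p = 0.106) or 4 (adjusted p = 0.0561), or testes replicate 1 (adjusted p = 0.857) or 2 (adjusted p = 0.194), ended the call. Acrbp, which binds the acrosomal protease precursor, had 5, 0 and 3 counts in sperm and 57 and 87 in testes (log2 -2.53, SE 1.34, adjusted p = 0.142). The median log2 fold change of the list was -2.14, against -1.17 over all genes tested.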

How the data were processed

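Strand-specific, rRNA-depleted RNA of sperm and testes was sequenced with paired ends. Per the study's methods, the authors removed adaptors and poor reads and aligned with SOAPaligner/SOAP2, while the submitters' processing notes name HISAT and the build mm10. The counting program is not given in the sources used here. The tables deposited by the authors hold an estimated count per transcript, not scaled for depth, and FPKM, which the authors scaled by transcript length and depth. Transcripts absent from a table were taken as 0.

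Counts of NM_ rows, 9.14% to 12.1% of all counts, were summed per gene, rounded for tests and scaled by the NM_ total. The 127 members and all lists were chosen with earlier results of these data known. Coordinates are those of GRCm38.p6, in which 140 of 143 member transcripts matched by accession, and 16 members had more than 1 transcript.

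Sperm replicates 2 to 4 were compared with both testes samples by edgeR 4.0.16 (glmQLFit, glmQLFTest, R 4.3.3) without TMM. Genes with at least 10 counts over the 5 samples and counts in 2 of them were tested. Calls needed a Benjamini-Hochberg adjusted p below 0.05 over all genes tested and a fold change above 2. Adjusted p-values in the text are from edgeR unless DESeq2 is named. The SE values are not reported by edgeR. Each is the size of the log2 fold change divided by the square root of the F statistic. Such a value is approximate and unstable near a log2 fold change of 0 (SE 4.02 for Rab3gap1 at 0.003). Sperm samples are pools, and testes came from the same mice, so p-values measure the spread between these samples. Replicates of a group gave a chi-square of 4.93 to 12.5 for each degree of freedom, so none were merged. The labels give no batch.

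The genes named were those of the acrosome list, the called members, the 10 members highest in sperm and the 5 highest in testes, 1 of which is not reported here. Alternatives were TMM factors, the total of all transcript classes, DESeq2 1.42.0, other filters on low counts, all 4 sperm samples, a replicate block and leaving out each sample. The fit was also run on simulated counts, with an outcome not reported here. Python 3.11.15, numpy 2.4.6, pandas 2.3.3, scipy 1.17.1 and matplotlib 3.10.9 were used.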

Additional observations from a re-analysis of the deposited data

Results flagged for a closer look

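The 4 sperm samples were compared with each other in 28 sets of values (named genes, and the number and share of vesicle genes), and in 7 of them, all single genes, 1 sperm sample stood far from the other 3. Chance gives about 1 in 20 such groups, and counts near 0 make them more frequent, since 1 sample with counts beside 3 without any is always set apart. Sperm replicate 1 stood apart for Rab11fip1 (354 CPM), replicate 2 for Stx18 (20.0), Vamp1 (10.00), Vamp3 (10.00) and Vps33a (70.0), replicate 3 for Rab11fip3 (1074), and replicate 4 for Stx2 (110).

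Sperm replicate 1, which took no part in the comparison, held at least 3 counts and a level above both testes samples for 8 of the named genes. Its levels were 849 CPM for Syt6, 354 for Rab11fip1, 307 for Rab34, 283 for Vamp2, 260 for Rab3ip, 212 for Vps9d1, 189 for Rab4a and 165 for Vps52. For Rab11fip1 this was the reverse of sperm replicates 2 to 4, which had 1, 0 and 0 counts. The difference was not tested.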

How the results depend on the processing

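Vesicle genes called higher in sperm numbered 2 and those called lower 2. The numbers were 1 and 22 with TMM factors, 1 and 10 with DESeq2, 0 and 0 without a filter on low counts (22 at an unadjusted p below 0.05 in edgeR), 4 and 9 with a minimum of 30 counts, 4 and 3 with filterByExpr, 2 and 4 with the total of all transcript classes, and 2 and 14 with all 4 sperm samples. Leaving out 1 sample each time gave 0 to 6 higher and 0 to 6 lower. Over all genes, 234 were called higher and 248 lower. The numbers were 121 and 1787 with TMM factors, 15 and 4 without the filter, 176 and 839 with DESeq2, 281 and 799 with the minimum of 30, 210 and 387 with all transcript classes, and 271 and 1307 with all 4 sperm samples. Leaving out 1 sample gave 68 to 608 higher and 47 to 702 lower. The cause was not tested, except that the filters change how many genes share the adjustment.

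The replicate block over all 6 samples gave 2 vesicle genes higher and 0 lower, and 164 and 103 over all genes. Deviations of same-numbered samples from their group means had r of -0.02 and -0.05 across 6900 genes. With 2 testes samples the testes deviations mirror each other, so these r values are not separate checks. At counts this low the check cannot decide whether same-numbered samples are paired.

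Thinning took the testes mean of vesicle genes with counts from 106 to 52.7, and asking for 3 counts took it to 75.5. As a share of all transcript classes, vesicle genes held 0.0446% in sperm and 0.0547% in testes. No named gene changed its direction while called. Low counts limit these results: most vesicle genes lay under the floor of 3 counts in sperm.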

Other observations

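Genes that serve the Rab cycle outside the families, such as the GDI proteins that draw Rabs off membranes, gave no call among 6 tested of 11 with a row (14 listed), with 2 at an unadjusted p below 0.05 in edgeR. Their summed mean was 248 CPM in the sperm samples compared and 281 CPM in testes. The exocyst, which tethers secretory vesicles at the plasma membrane, gave no call among 2 tested of 8 with a row, with 0 at an unadjusted p below 0.05, and summed means of 299 and 225 CPM.

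Rab17, Rab42 and Vps72 had counts in sperm and none in testes, and were picked after their values were seen. Vps72 entered by its name alone and was in none of the Vps groups described above. All of these counts were in sperm replicate 2, with 3 for Rab17, 1 for Rab42 and 4 for Vps72. The other sperm samples had none. The mean of sperm replicates 2 to 4 was 10.00 CPM for Rab17, 3.33 for Rab42 and 13.3 for Vps72. Rab3c, a secretory Rab, had 26.67, 0 and 3.57 counts in sperm replicates 2 to 4, against 6.68 and 0 in testes, and was also picked after its values were seen (log2 3.40, SE 1.63, edgeR adjusted p = 0.103).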
